A study of Mus musculus with 4 samples.

Results

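The CCR4-NOT complex is the main deadenylase of animal cells: it shortens the poly(A) tail of mRNAs, which then lose their translation and are decapped and degraded. It is built on the scaffold protein CNOT1, on which the nucleases and the other subunits are held. In male germ cells the RNA-binding protein NANOS2, which is needed to keep spermatogonial stem cells, is known to bind this complex and to bring chosen mRNAs to it. The transcripts described here are those of 10 genes of the complex: the catalytic subunits Cnot6, Cnot6l, Cnot7 and Cnot8, and the other subunits Cnot2, Cnot3, Cnot4, Cnot9, Cnot10 and Cnot11. They were chosen by name, by matching the RefSeq accession of each array probe to the gene symbol. All 10 of the 10 genes had probes, 21 of the 41174 probes on the array, and all were tested among 21594 features (genes, or accessions without a gene symbol). Cnot1 was not analysed here.

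RNA was measured in testis of mice at postnatal day 7 that carried a transgene in which a Nanos2 enhancer drives FLAG-tagged Nanos2 followed by the Nanos2 3′ untranslated region. RNA of FLAG immunoprecipitates (FLAG IP) was set against RNA of the starting material (Input), with 2 single-colour Agilent arrays per group and 4 in all, and every sample of both groups carried the transgene. The series' design text calls the duplicates biological, and the labels name no animals and no pooling, so p-values measure the spread between these samples. The titles give postnatal day 7, which was used, while a description field names an E14.5 gonad, and the labels' protocols do not describe the precipitation. A mock precipitate of untagged testis was not analysed here. A change therefore says that a transcript made up a larger or smaller share of the precipitated RNA than of the Input RNA, and recovery without the tag was not tested. The Input is whole-organ RNA. A fall is a smaller share in the precipitate than in the Input, and measures neither cell number nor RNA per cell.

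A level is the log2 signal of a probe minus the 75th percentile of its array, and a change is the mean level in the FLAG IP minus the mean level in the Input, so that 1 on this scale is a 2-fold change. The 75th percentile signal was 1019 and 1267 on the FLAG IP arrays and 1474 and 1676 on the Input arrays. Errors of changes are standard errors of limma, a linear model fitted to all features at once, and a transcript was called at a Benjamini-Hochberg adjusted p under 0.05 over all 21594 features. Levels of different probes are not comparable, because each probe binds with its own strength. Of the germ cell markers, 11 of 12 had a probe and all 11 were well above background. Among them 1 rose (Gfra1, a GDNF receptor, by 1.32) and 0 fell, and their summed signal, as a multiple of the 75th percentile, was 96.8 to 124 in the FLAG IP and 111 to 120 in the Input. Over all features 15.8% were called higher and 21.3% lower. Of 41 tested markers of somatic testis cells and blood, 0 rose and 22 fell, with summed signals of 248 to 253 in the FLAG IP and 373 to 421 in the Input. The falls were 6 of 12 for Sertoli cells, 5 of 8 for Leydig cells, 4 of 7 for peritubular myoid cells, 5 of 5 for macrophages, 0 of 6 for endothelium and 2 of 3 for red blood cells. The largest in each list were Insl3 (−1.81), Mylk (−1.24), Tyrobp (−1.89), Hba-a1 (−1.29) and Tsx. Tsx (Sertoli cells) and Lhcgr (Leydig cells), both among the falls, were not well above background on either FLAG IP array and were tested through their Input signal alone, so these counts are a description. The part of these cells in the results below was not tested.

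Transcripts of 3 of the 10 CCR4-NOT genes rose in the FLAG IP by their brightest probes, 0 fell and 7 were not called. The 3 were Cnot6l, at 2.41-fold, Cnot4, at 1.81-fold, and Cnot7, at 1.60-fold, though a second Cnot7 probe was called lower. Of all 21594 features, 15.8% were called higher and 21.3% lower. The median change of the 10 genes was 0.28, against −0.15 over all features, and it was 0.10 without FLAG IP replicate 1. Scaled instead to the spike-in control spots, 0 of the 10 genes were called higher and 4 lower. Of all 21594 features, 590 were then higher and 13876 lower. On all 4 arrays every one of the 21 probes was well above background, so none of the changes is a bound.

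**Figure D1:**
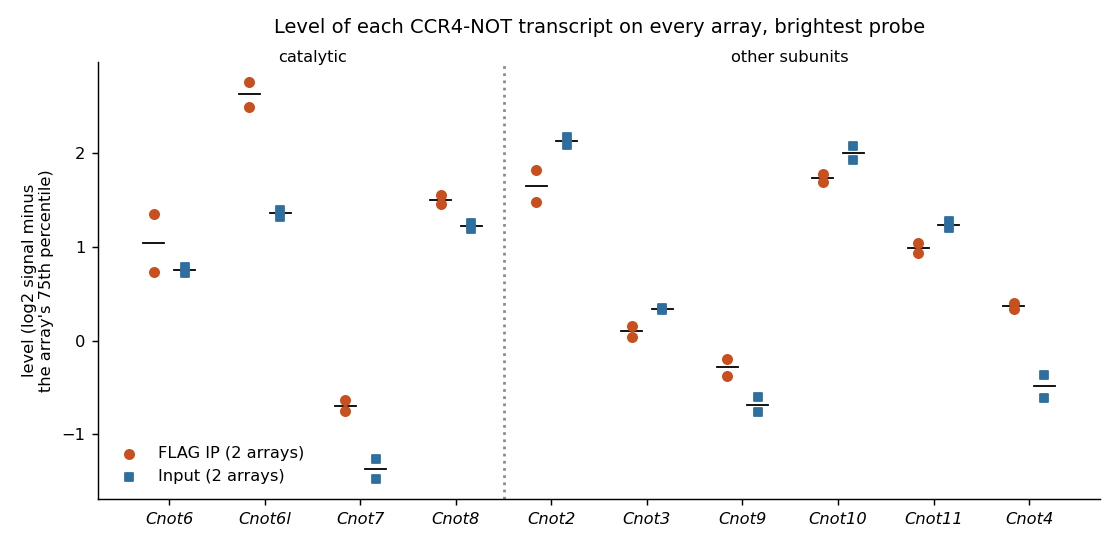
Level of the brightest probe of each of the 10 genes (log2 signal minus the 75th percentile of the array) on the 2 FLAG IP arrays (circles) and the 2 Input arrays (squares), with black lines at the group means. The groups do not overlap except for Cnot6. Of all features, 29.8% had the FLAG IP arrays above the Input arrays without overlap and 44.7% below. Levels of different genes are not comparable.

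Cnot6l and Cnot6 encode the CCR4-type nucleases of the complex, close relatives of which a complex holds 1 or the other. Cnot6l had levels of 2.49 and 2.76 in the FLAG IP, against 1.39 and 1.32 in the Input. Both FLAG IP arrays lay above both Input arrays, by 1.10 to 1.44 over the 4 array pairs. The change was 1.27 ± 0.16 (SE, adjusted p = 0.0086), which 6.69% of all features exceeded. Cnot6l was also higher before any scaling of the arrays, with signals of 5728 and 8571 in the FLAG IP and 3869 and 4182 in the Input.

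Cnot6l has a further probe, assigned to another RefSeq transcript of the gene (NM_178854, against NM_144910 for the brightest), and it rose more. Its levels were 0.34 and 0.60 in the FLAG IP and −1.39 and −1.47 in the Input, a change of 1.90 ± 0.16 (adjusted p = 0.0051 over all 27830 tested probes). The groups were again clearly apart on this probe. Leaving out 1 Input array ended the call of the brightest probe, with the change at 1.31 without Input replicate 1 (adjusted p = 0.0585) and at 1.23 without Input replicate 2 (adjusted p = 0.0636).

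Cnot6 had levels of 1.35 and 0.73 in the FLAG IP and of 0.72 and 0.78 in the Input. The FLAG IP arrays stood apart from each other, with only replicate 1 above the Input arrays, and the groups overlapped. The change of 0.29 ± 0.24 was not called (adjusted p = 0.39, 95% interval −0.35 to 0.92), and it was −0.03 without FLAG IP replicate 1 (adjusted p = 0.91) and 0.60 without FLAG IP replicate 2 (adjusted p = 0.046). To compare the changes of the pair, the Cnot6 level was subtracted from the Cnot6l level within each array, which gave 1.58 ± 0.63 in the FLAG IP and 0.60 ± 0.09 in the Input (SD, n = 2 each). The change of Cnot6l was thus larger by 0.98, by 0.47 to 1.49 over the array pairs. An exact permutation test over the arrays gave a two-sided p of 0.333, the smallest that 2 arrays against 2 allow.

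Cnot7 and Cnot8 encode the CAF1-type nucleases, which bind the scaffold CNOT1 directly and connect the CCR4-type nucleases and the BTG/TOB proteins to it. The brightest Cnot7 probe had levels of −0.75 and −0.64 in the FLAG IP, against −1.27 and −1.48 in the Input. The groups did not overlap, and the change was 0.68 ± 0.15 (adjusted p = 0.030). Its signals before scaling overlapped, at 603.7 and 815.5 in the FLAG IP and 612.5 and 601.9 in the Input. The other Cnot7 probe, assigned to the same transcript (NM_011135), went the opposite way. That probe had levels of −1.37 and −1.53 in the FLAG IP and −0.78 and −0.61 in the Input, and fell by 0.75 ± 0.15 (adjusted p = 0.023 over all probes).

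The choice between the Cnot7 probes rested on a narrow margin, since their mean levels over the 4 arrays were −1.03 and −1.07. Averaged, they gave a change of −0.04 (adjusted p = 0.83), and no direction can be given for the gene as a whole. The call of the brightest probe also ended without FLAG IP replicate 2 (0.62, adjusted p = 0.0577), without Input replicate 1 (0.78, adjusted p = 0.12) and without Input replicate 2 (0.57, adjusted p = 0.20).

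Cnot8 had levels of 1.55 and 1.45 in the FLAG IP, against 1.25 and 1.19 in the Input. Both FLAG IP arrays were above both Input arrays, by 0.20 to 0.36, yet the change of 0.28 ± 0.14 was not called (adjusted p = 0.17, 95% interval −0.08 to 0.64). The second Cnot8 probe, at 0.18 and 0.23 in the FLAG IP and −0.41 and −0.28 in the Input, rose by 0.55 ± 0.14 (adjusted p = 0.040 over all probes). Both probes of Cnot8 thus had positive changes, of which 1 was called. Before scaling, signals of the brightest were lower in the FLAG IP, at 2988 and 3473 against 3515 and 3827 in the Input. Those of the second overlapped, at 1156 and 1482 in the FLAG IP and 1106 and 1381 in the Input.

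**Figure D2:**
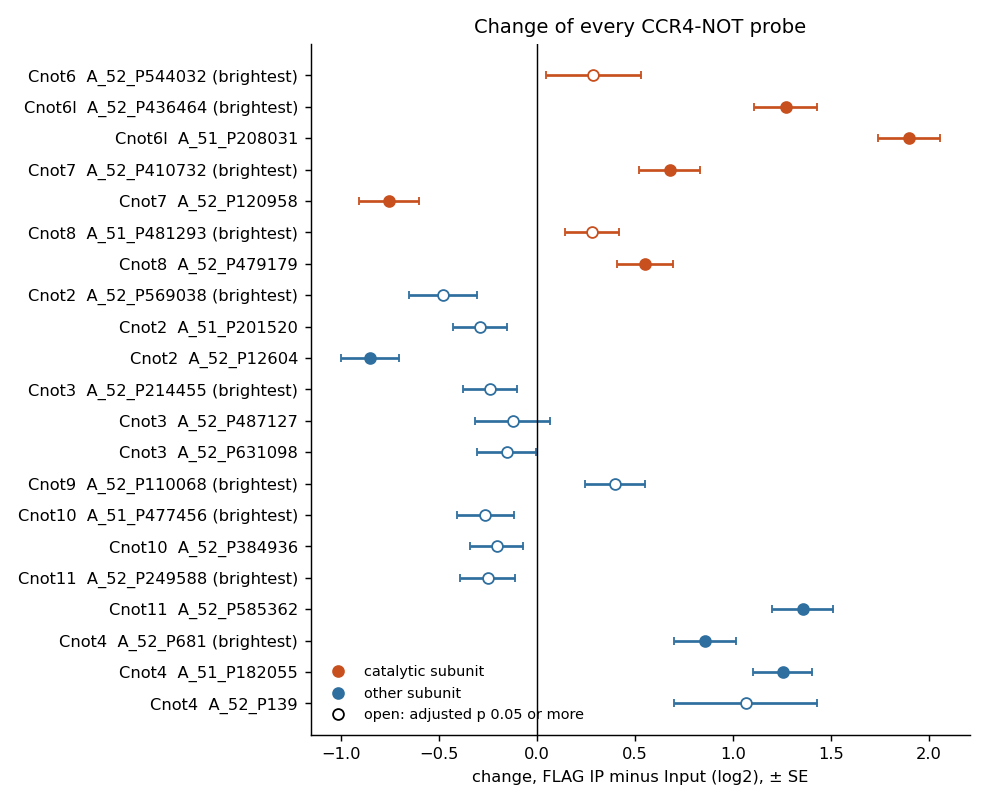
Change of each of the 21 probes (FLAG IP minus Input, log2, bars ± SE of limma), catalytic subunits in orange and other subunits in blue, filled where the adjusted p over all probes was under 0.05. The Cnot7 and Cnot11 probes fall on both sides of 0, and the 3 Cnot2 probes all lie below it.

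Cnot2 and Cnot3 encode the NOT-module subunits, which pair with each other and bind the C-terminal end of CNOT1. Cnot2 had levels of 1.48 and 1.81 in the FLAG IP, against 2.17 and 2.09 in the Input. Both FLAG IP arrays were below both Input arrays, and the change of −0.48 ± 0.17 was not called (adjusted p = 0.089). It was called without FLAG IP replicate 2 (−0.65, adjusted p = 0.040). The other Cnot2 probes had changes of −0.29 ± 0.14 (adjusted p = 0.16) and −0.85 ± 0.15 (adjusted p = 0.017 over all probes). The third, assigned to NM_028082 and not NM_001037846, was thus the Cnot2 probe that fell. Its change was not called different from that of the brightest probe (0.37 ± 0.12, brightest minus other, limma adjusted p = 0.13). All 3 Cnot2 probes had both FLAG IP arrays below both Input arrays, as did 43.3% of all tested probes.

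Cnot3 had levels of 0.04 and 0.15 in the FLAG IP and 0.35 and 0.32 in the Input. The FLAG IP arrays were the lower ones by 0.17 to 0.31, and the change of −0.24 ± 0.14 was not called (adjusted p = 0.22, 95% interval −0.60 to 0.12). Its other 2 probes had changes of −0.16 ± 0.15 and −0.12 ± 0.19, and the last of them was dim, with signals of 20.8 and 22.5 in the FLAG IP and 26.9 and 39.5 in the Input, and overlapped between the groups.

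Cnot10 and Cnot11 encode a pair of subunits that bind the N-terminal end of CNOT1. Cnot10 had levels of 1.78 and 1.69 in the FLAG IP and 2.07 and 1.93 in the Input. Its change was −0.26 ± 0.14 (adjusted p = 0.20), and that of its other probe was −0.21 ± 0.13 (adjusted p = 0.27). Neither Cnot10 probe was called. Both had the FLAG IP arrays below the Input arrays, as did 43.3% of all tested probes.

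The brightest Cnot11 probe had levels of 1.04 and 0.93 in the FLAG IP and 1.20 and 1.27 in the Input, a change of −0.25 ± 0.14 that was not called (adjusted p = 0.21). The other Cnot11 probe, assigned to the same transcript (NM_028043), rose by 1.36 ± 0.16 (adjusted p = 0.0077 over all probes). Its levels were −1.94 and −2.11 in the FLAG IP, against −3.29 and −3.48 in the Input. It was a weaker probe, with signals of 265 and 293 in the FLAG IP and 150.7 and 150.7 in the Input, and it was higher in the FLAG IP before scaling as well. The mean of the 2 probes rose by 0.55 (adjusted p = 0.039), so the direction of Cnot11 depended on the probe.

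Cnot9 encodes the subunit that binds TNRC6 proteins of the microRNA pathway and several other RNA-binding proteins. It had levels of −0.37 and −0.20 in the FLAG IP and −0.61 and −0.76 in the Input. Both FLAG IP arrays were above both Input arrays, and the change of 0.40 ± 0.15 was not called (adjusted p = 0.10, 95% interval −0.0019 to 0.80). Cnot9 rests on 1 probe, as does Cnot6.

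Cnot4 encodes a ubiquitin ligase that is a fixed part of the complex in yeast and is bound more loosely in mammals. It had levels of 0.34 and 0.40 in the FLAG IP, against −0.61 and −0.37 in the Input. Both FLAG IP arrays were higher, by 0.70 to 1.01, and Cnot4 rose by 0.86 ± 0.16 (adjusted p = 0.018). A second Cnot4 probe rose by 1.25 ± 0.15 (adjusted p = 0.0082 over all probes), with levels of −0.22 and −0.08 in the FLAG IP and −1.49 and −1.32 in the Input. The third had a change of 1.06 ± 0.37 that was not called (adjusted p = 0.080), and its replicates differed by 0.85 in the FLAG IP and by 0.62 in the Input. Before scaling, signals of the brightest probe overlapped, at 1287 and 1673 in the FLAG IP and 965.5 and 1300 in the Input. Those of the third overlapped too. The second was higher in the FLAG IP before scaling, at 873.5 and 1200 against 526.2 and 669.9 in the Input. By level, all 3 Cnot4 probes had both FLAG IP arrays above both Input arrays, as did 30.5% of all tested probes. The call of the brightest probe ended without Input replicate 1 (0.74, adjusted p = 0.13) and without Input replicate 2 (0.98, adjusted p = 0.081).

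The catalytic subunits were then set beside the other subunits. By their brightest probes 2 of the 4 catalytic genes were called higher and 0 lower, with changes of 0.28 to 1.27 and a median of 0.48. Of the 6 other genes 1 was called higher and 0 lower, with changes of −0.48 to 0.86 and a median of −0.24. The shares over all features were 15.8% higher and 21.3% lower, with a median change of −0.15. By their brightest probes all 4 catalytic changes were positive, and 4 of the other 6 were negative. Among all 21594 features, 9045 had positive and 12549 had negative changes. The other Cnot7 probe fell and the other Cnot11 probe rose, so the signs within the 2 classes depend on the choice of probe. The difference of the medians was 0.73, and it was 0.65 to 0.84 over the 4 array pairs. This is a description of 10 chosen genes and was given no test.

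The contrast between the classes depended on how probes were combined. Counted by probe, 4 of 7 catalytic probes were called higher and 1 lower, with a median change of 0.55, and 3 of 14 other probes were called higher and 1 lower, with a median of −0.18. Over all 27830 tested probes 15.6% were called higher and 20.1% lower. With the probes of each gene averaged, the median was 0.35 for the catalytic genes and 0.11 for the others, and the difference of the medians shrank to 0.24. Cnot6l accounted for 2 of the 4 catalytic probes called higher and Cnot4 for 2 of the 3 others.

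**Figure D3:**
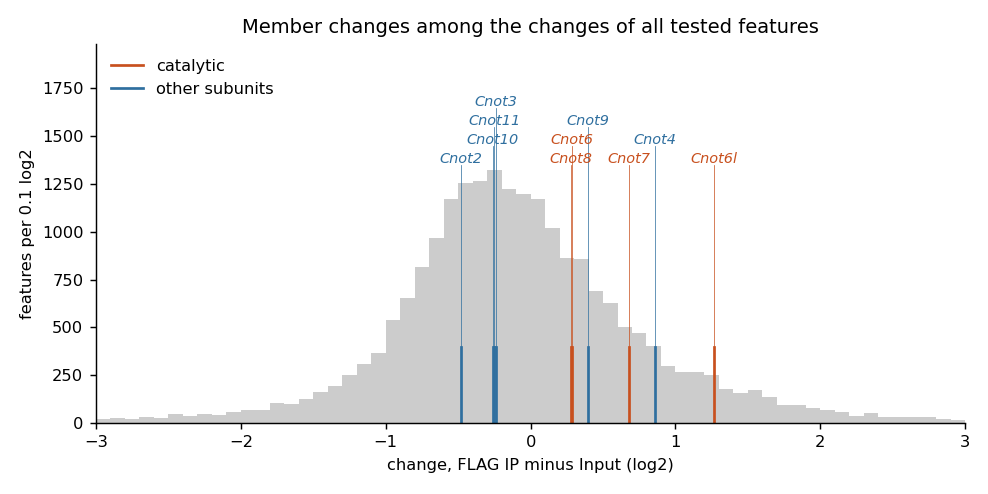
Changes of all 21594 tested features (grey bars, number of features per 0.1 log2) with the brightest-probe changes of the 4 catalytic (orange) and 6 other (blue) genes marked. Cnot6l lies farthest to the right at 1.27, by these probes Cnot3, Cnot10 and Cnot11 lie near the middle of all features, and changes beyond the axis are not drawn.

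Against all features, 5 of the 10 genes had both FLAG IP arrays above both Input arrays and 4 had both below, where 29.8% and 44.7% of all features did so. By probe, 10 of 21 lay above and 9 below, where 30.5% and 43.3% of all tested probes did so. By their brightest probes Cnot3, Cnot10 and Cnot11 lay near the middle of the distribution, since 55.4%, 57.0% and 56.2% of features had a higher change, and 69.7% had a higher change than Cnot2. The other Cnot11 probe lay far from it, exceeded by 5.72% of all tested probes. Cnot4 was exceeded by 12.1% of features. The brightest Cnot7 probe was exceeded by 15.9% of features and the other Cnot7 probe by 83.8% of all tested probes. The replicates of the 10 genes differed by −0.62 (Cnot6) to 0.34 (Cnot2) in the FLAG IP, replicate 2 minus replicate 1, and by −0.21 to 0.24 in the Input.

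Whether the probes of a gene changed alike was tested with limma on the difference between the brightest and another probe of the same gene within each array, for 5432 pairs of 4400 genes. A constant added to a whole array cancels in such a difference, but quantile normalization does not. Of the 11 pairs among the CCR4-NOT genes, 3 differed in change, where 10.7% of all pairs did. The changes of the Cnot11 probes differed by −1.61 ± 0.14, brightest minus other (adjusted p = 0.022), those of Cnot7 by 1.43 ± 0.19 (adjusted p = 0.030) and those of Cnot6l by −0.63 ± 0.11 (adjusted p = 0.042). The Cnot6l probes both rose, and under quantile normalization their difference was −0.58 and not called (adjusted p = 0.0511), which left 2 pairs called. The number of pairs called was 1 without FLAG IP replicate 2 and 0 without any other single array, and the Cnot11 pair remained the called one. The probe sequences and their places in the transcripts are not used here.

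All these changes are relative to the array, and another scaling moves them together. Scaled to the spike-in control spots, the median of all features moved by −0.98, the calls split into 4.08% higher, against 42.6% higher in the values above, and Cnot6, Cnot7, Cnot8, Cnot9 and Cnot4 had negative changes, with Cnot6l at 0.29 (adjusted p = 0.52). Relative to the median of all features under that scaling, Cnot6l was at 1.41, Cnot4 at 1.003, Cnot7 at 0.82 and Cnot2 at −0.33, and only Cnot6l was called. The order of the genes and the difference between the classes are the same under both scalings by construction.

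**Figure D4:**
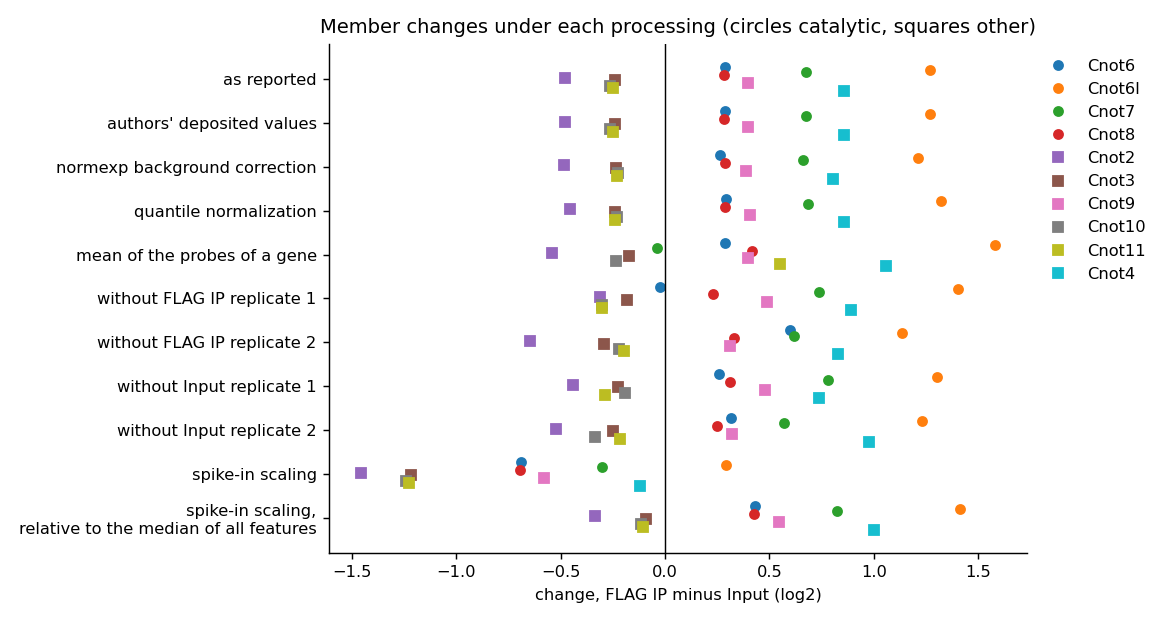
Change of each gene (log2, FLAG IP minus Input; brightest probe, or mean of probes where named) under the processing alternatives named on the vertical axis, catalytic genes as circles and others as squares. Spike-in scaling shifts all 10 to lower values, and averaging probes moves Cnot7 below 0 and Cnot11 above it.

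Other transcripts of deadenylation were described from a list of 37 genes, of which 31 were tested: 17 rose and 1 fell, with a median change of 0.70 against −0.15 over all features, and without Input replicate 1 or Input replicate 2 the number higher was 5. Calls over all features were also fewer with 1 Input array left out. Under spike-in scaling 3 of the 31 were higher and 9 lower, where 590 and 13876 of all 21594 features were. The proteins that bring CCR4-NOT to mRNAs had 11 of 18 tested members higher, 0 lower and a median of 1.14, where 15.8% of all features were called higher and 21.3% lower. These lists were chosen with earlier results of these data known, and no list was tested as a set. Nanos2 itself had levels of −1.94 and −2.44 in the FLAG IP, against −3.87 and −3.66 in the Input. Both FLAG IP arrays were above both Input arrays, and the change was 1.58 ± 0.22 (adjusted p = 0.010). Whether the Nanos2 probe reads transgenic RNA, endogenous RNA or both was not tested.

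Nanos1, a paralogue of Nanos2, had levels of 1.43 and 1.37 in the FLAG IP and −1.20 and −1.34 in the Input, a rise of 2.67 ± 0.14 (adjusted p = 0.0038) that its other probe matched at 2.85. Zfp36, which binds AU-rich elements, rose by 2.19 ± 0.22, and its other probe by 2.15. Cpeb1, which binds cytoplasmic polyadenylation elements, rose by 2.02 ± 0.14. Btg1 and Tob1 encode antiproliferative proteins that bind the CAF1-type nucleases, and they rose by 1.55 ± 0.15 and 1.08 ± 0.14, and the brightest probes of their relatives Btg2 (−0.12 ± 0.17) and Tob2 (−0.11 ± 0.17) were not called. Probes of a gene varied here too: the other Btg1 probe rose by 0.90, and the other probes had changes of 0.33 and 0.37 for Btg2 and 0.77 for Tob2, none of these 3 called. Zfp36l1, of the Zfp36 family, rose by 1.46 ± 0.13.

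Among the other deadenylases 4 of 8 tested members were higher and 1 lower, with a median of 0.55, against the same 15.8% and 21.3% of all features. Pan2 and Pan3 encode the nuclease and the RNA-binding subunit of another cytoplasmic deadenylase. Pan3 had levels of 2.84 and 2.50 in the FLAG IP and 1.90 and 1.74 in the Input, a rise of 0.84 ± 0.18 (adjusted p = 0.026), and its other probe had a change of 0.09 ± 0.19. Pan2 had levels of −0.37 and −0.36 in the FLAG IP and 0.07 and 0.29 in the Input. It was the 1 transcript of the list that fell, by 0.55 ± 0.15 (adjusted p = 0.046), and the call ended when any 1 of the 4 arrays was left out. Parn, a poly(A)-specific ribonuclease, rose by 0.79 ± 0.16 (adjusted p = 0.023). Its other probe had a change of 0.80 ± 0.23 that was not called (adjusted p = 0.054 over all probes). Of 5 tested transcripts for poly(A)-binding and downstream proteins 2 were higher and 0 lower, against 15.8% and 21.3% of all features.

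**Figure D5:**
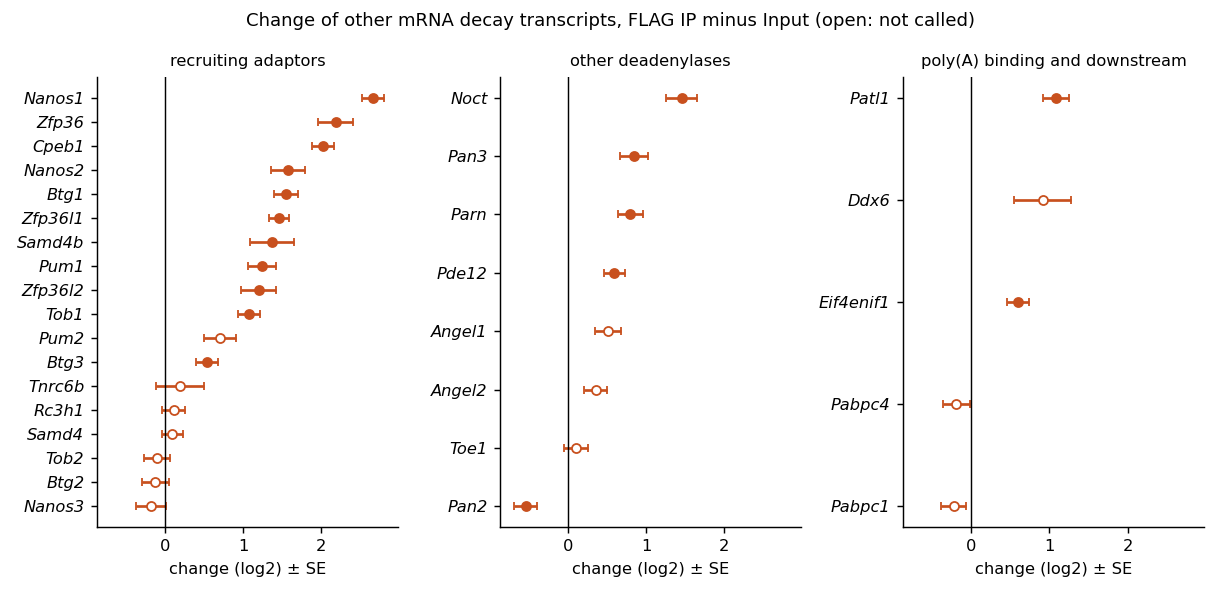
Changes (log2, FLAG IP minus Input, bars ± SE of limma) of 31 other transcripts of deadenylation in 3 panels, filled where the adjusted p was under 0.05. Of the 18 recruiting proteins 11 were called higher, and Pan2 is the filled point below 0.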

How the data were processed

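The sample titles gave each array's group and replicate number. Per the file headers, each deposited scanner file holds spot intensities extracted with Agilent Feature Extraction, version 9.5 in the submitters' processing notes, as a background-subtracted processed signal with raw median intensities and 0 or 1 flags, a coded value of another kind than a signal. The authors' deposited table of the series holds log2 values, which, for 99.45% of probes, matched the log2 processed signal to within 0.01 after an offset per array. All 4 arrays were on 1 slide with 1 scan time, so slide could not be used as a block. Per array 43379 spots were not controls, 62 to 90 of them were left out as outliers and 0 were saturated. Between 66.3% and 68.4% of probes were well above background. The number of arrays limits the precision.

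Computed here were log2 of the processed signal minus the 75th percentile of the array, the brightest probe over the 4 arrays for each gene, and limma 3.58.1 in R 4.3.3 (lmFit, eBayes, two-sided, Benjamini-Hochberg) over features that both arrays of the FLAG IP, or both of the Input, measured well above background. A call is an adjusted p under 0.05. Probes were named by RefSeq accession through GRCm38.p6 names, and 22951 (55.7%) had a symbol. The array was designed on another build, so no coordinates are given. All 10 CCR4-NOT genes are named, and of the other decay genes up to 6 higher and 4 lower called ones by size, with Pan2, Pan3, Parn, Btg1, Btg2, Tob1, Tob2 and Nanos2 in any case. Same-numbered arrays deviated from their group means with a correlation of −0.38, so the numbers were not taken to pair the samples. Of each cell marker list, counts, sums and the called gene with the largest change are given. The genes, lists and rules were chosen with earlier results of these data known, and the test between probes of a gene was chosen after seeing the data. The scripts were tested on simulated data. Alternatives were normexp on the median signals (the files used here hold no mean signal column), quantile and spike-in scaling (8 spike-in probes), the deposited values, no filter, other uses of the probes, a replicate block, trend and robust moderation, and leaving out each array.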

Additional observations from a re-analysis of the deposited data

How the results depend on the processing

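Spike-in scaling gave 590 features higher and 13876 lower, 0 CCR4-NOT genes higher and 4 lower, medians of −0.69 (10 genes), −0.50 (catalytic) and −1.22 (other), 3 other decay genes higher and 9 lower, and changes of −0.69 for Cnot6, −0.30 for Cnot7, −0.70 for Cnot8, −0.58 for Cnot9 and −0.12 for Cnot4. Taken relative to the median of all features, an alternative chosen after seeing the data, it gave 1450 features lower, 1 CCR4-NOT gene higher, a median of −0.10 for the other subunits and 0 other decay genes lower. Averaging probes gave 1 CCR4-NOT gene lower (Cnot2), a median of 0.11 for the other subunits, a class difference of 0.24, and changes of −0.038 for Cnot7 and 0.55 for Cnot11. Testing every probe gave 7 CCR4-NOT probes higher and 2 lower, a median of −0.18 for the other subunits, 2 other decay probes lower, and changes of −0.75 and 1.36 for the other probes of Cnot7 and Cnot11. The replicate block gave 2269 features higher and 2290 lower, 0 other decay genes lower and 0 probe pairs called, and ended the call of Cnot7 (adjusted p = 0.0915, limma). The crossed replicate block, added after seeing the data, gave 4321 features higher and 6498 lower, and 1 CCR4-NOT gene lower, as did trend and robust moderation (1, Cnot2 in both). Without the filter 3020 features and 0 other decay genes were lower, and Cnot7 was not called (adjusted p = 0.0538). Normexp gave a median of −0.23 for the other subunits. Leaving out each array gave 977 to 3725 features higher and 552 to 4573 lower, 0 to 3 CCR4-NOT genes higher and 0 to 1 lower, medians of 0.10 to 0.32 for the 10 genes and −0.24 to −0.21 for the other subunits, 5 to 18 other decay genes higher, 0 lower, and 0 to 1 probe pairs called. The numbers of calls were lowest without an Input array, and Cnot6 was between −0.025, without FLAG IP replicate 1, and 0.599, without FLAG IP replicate 2. A lone array was assumed to vary like the other group. The causes were not tested. Slide as a block was not run, since all arrays share 1 slide.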
